A study of Mus musculus with 50 samples.

Results

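The dopamine receptors are the 5 mouse genes *Drd1*, *Drd2*, *Drd3*, *Drd4* and *Drd5*, found by symbol in both deposited count tables, each of which lists 24552 genes. RNA was counted in 46 libraries of nucleus accumbens (NAc) tissue from C57BL/6 mice of 8 to 12 weeks. The mice were RT; D1-Cre or RT; D2-Cre, so that every group, controls included, carried the RiboTag allele (RT), which puts an HA tag on the ribosomal protein Rpl22 where Cre is expressed, and a Cre transgene. Precipitation with an HA antibody (IP) takes down the tagged ribosomes with the RNA bound to them, and the input is RNA of the homogenate saved before precipitation. There were 13 D1-IPs (4 undefeated controls, Con; 4 resilient, Res; 5 susceptible, Sus), 15 D2-IPs (5 per stress group) and 18 inputs (3 per line and stress group), each made from 2 pooled mice and 2 mm punches. Res and Sus mice had met an aggressive CD1 male for 10 min a day, per the labels, for up to 10 days, and were sorted by a social interaction test. The methods state a shorter daily exposure than the labels. A second table held 4 D1-IPs labelled Sirt1-KO, from undefeated male C57BL/6 mice (RT; Sirt1-floxed; D1-Cre, age not given in the labels), beside the same 4 D1 Con libraries. Both Cre transgenes are BAC transgenes, driven by regulatory sequence of *Drd1* (line FK150) or of *Drd2* (line ER44), so a cell that uses either receptor gene can be tagged, whatever its type, and the level of *Drd1* in D1-IPs and of *Drd2* in D2-IPs is tied to how the cells were chosen.

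Dopamine receptors are G-protein-coupled receptors of the cell surface that fall into 2 families. The D1-like receptors, encoded by *Drd1* and *Drd5*, couple to stimulatory G proteins (Gs and the striatal Golf) and raise cyclic AMP through adenylyl cyclase and protein kinase A, whereas the D2-like receptors, encoded by *Drd2*, *Drd3* and *Drd4*, couple to Gi and Go and lower it. In the striatum and the NAc most neurons are medium spiny neurons (MSNs), classed as D1-MSNs or D2-MSNs by the receptor they express most. *Drd2* is also made by cholinergic interneurons and, as an autoreceptor, by dopamine neurons, *Drd3* is known mainly from the NAc and the islands of Calleja, and *Drd4* and *Drd5* are known as minor receptors of this tissue.

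In GENCODE vM21 on GRCm38 (the assembly that mm10 names), the 5 genes lie on 5 chromosomes and all are protein-coding. *Drd1* lies at chr13:54051183-54055705 on the minus strand and *Drd5* at chr5:38319367-38322518 on the plus strand, and both D1-like receptors have their whole coding sequence in 1 exon, of 446 codons for *Drd1* and 478 for *Drd5*. The D2-like receptor genes, all on the plus strand, are split. *Drd2* (chr9:49340627-49408177) has 444 codons over 7 coding exons, *Drd3* (chr16:43754026-43822932) has 8 coding exons and *Drd4* (chr7:141292006-141296464) has 387 codons over 4 coding exons. *Drd5* is overlapped by the antisense gene *Gm26560* and *Drd3* by the miRNA gene *Gm25996*. The libraries were made with a stranded kit, but the strand setting of the counting is not given in the sources used here, so it is not known whether the *Drd5* counts hold reads of its antisense partner.

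All 5 genes had a promoter in the RefSeq table used (GRCm38.p6). Those of *Drd1* and *Drd2* are shown, because these are the members whose levels separate the precipitates and the genes whose regulatory sequence drives the Cre lines. Capitals mark matches to the GC box, GGGCGG, read on either strand.
Drd1 promoter, chr13:54055706-54055908, minus strand: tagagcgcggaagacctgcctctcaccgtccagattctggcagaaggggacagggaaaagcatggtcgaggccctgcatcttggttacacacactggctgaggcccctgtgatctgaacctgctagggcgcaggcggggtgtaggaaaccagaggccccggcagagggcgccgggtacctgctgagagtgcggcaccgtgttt
Drd2 promoter, chr9:49340153-49340402, plus strand: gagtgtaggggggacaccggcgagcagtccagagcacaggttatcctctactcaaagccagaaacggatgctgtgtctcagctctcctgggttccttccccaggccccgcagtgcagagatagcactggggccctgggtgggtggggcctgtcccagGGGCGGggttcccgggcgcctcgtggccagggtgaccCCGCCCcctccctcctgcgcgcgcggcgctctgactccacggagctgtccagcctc
The *Drd2* window of 250 bases held 2 GC boxes, 1 on each strand, and was 68.8% G and C, and 32.7% of 32851 promoter windows of this length held at least 1. The *Drd1* window of 203 bases held none at 62.6% G and C, where 25.2% of windows of its length held 1. Both windows were richer in G and C than the median window of their length (52.4% at 250 bases and 51.7% at 203 bases). No match was found in either window, on either strand, to the TATA box (TATAAA), the cyclic AMP response element (TGACGTCA), its shorter core TGACG, which lies within the full element, or the AP-1 site (TGACTCA).

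Libraries held 21591075 to 31009626 counts on genes in the 28 IPs, 18384265 to 28179940 in the 18 inputs and 22174187 to 31785984 in those labelled Sirt1-KO. Cell type markers followed the labels, with 1 exception. The summed markers of D1-MSNs other than *Drd1* (*Tac1*, *Pdyn*, *Chrm4*) had a median of 965 CPM (counts per 1000000 counts on genes, scaled by TMM factors) in D1-IPs and 343 in D2-IPs, and those of D2-MSNs other than *Drd2* (*Penk*, *Adora2a*, *Gpr6*, *Gpr52*, *Sp9*) had 2485 in D1-IPs and 6636 in D2-IPs. The exception is that D2-MSN markers were also higher in D1-IPs than in D1-inputs (2485 against 1027), where *Penk*, *Adora2a* and *Gpr6* passed the test described below and *Gpr52* and *Sp9* did not. Astrocyte markers summed to 106 and 76.9 CPM in D1-IPs and D2-IPs and to 1092 and 1111 in the inputs, and markers of cholinergic interneurons to 14.2 and 107 CPM against 95.3 and 76.6.

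Per length, the 5 receptors spanned more than 3 orders of magnitude. Levels between genes are compared in RPKM, the CPM divided by the exon length in kb. In D1-IPs *Drd1* stood at 92.6 ± 8.34 RPKM (SD, n = 13), *Drd2* at 38.8 ± 4.76, *Drd3* at 3.77 ± 0.877, *Drd5* at 0.665 ± 0.213 and *Drd4* at 0.0368 ± 0.0372. In D2-IPs the order of the upper 2 was the other way round, with *Drd2* at 136 ± 10.7 RPKM (SD, n = 15) and *Drd1* at 37.4 ± 5.96, followed by *Drd3* at 2.67 ± 0.720, *Drd5* at 0.706 ± 0.184 and *Drd4* at 0.0567 ± 0.0298. *Drd2* in D2-IPs was above 98.9% of the genes with a count, *Drd1* in D1-IPs above 98.0%, and each was still above 93.6% in the IPs of the other line. *Drd3* was near the middle of all genes, above 58.4% in D1-IPs and 53.7% in D2-IPs, and *Drd5* was above 39.0% and 39.9%.

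**Figure D1:**
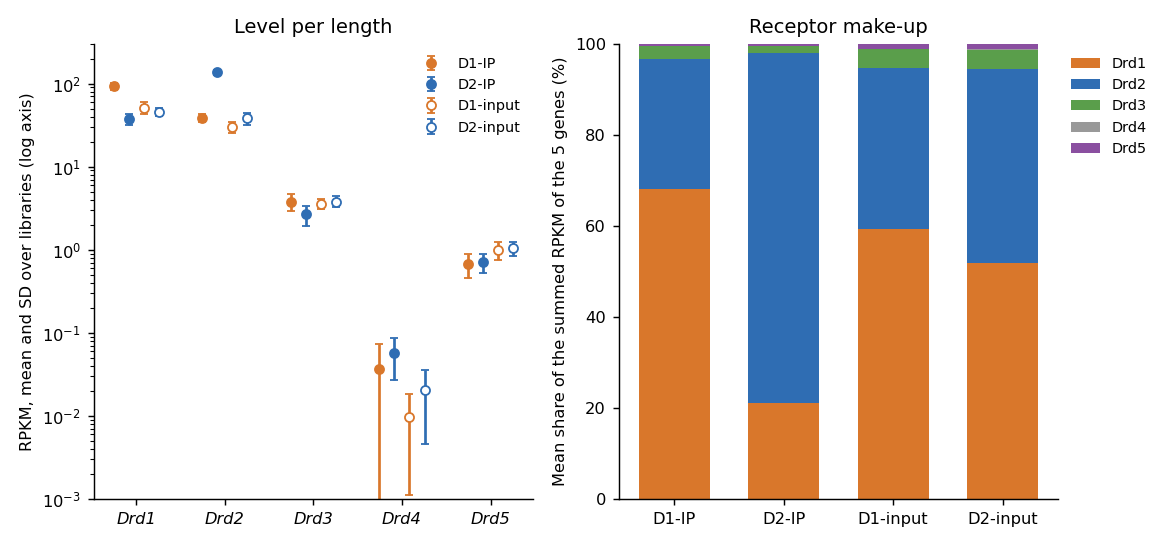
Left, mean level per length of each dopamine receptor (RPKM, log axis) with 1 SD over 13 D1-IPs, 15 D2-IPs, 9 D1-inputs and 9 D2-inputs, where the SD of *Drd4* in D1-IPs exceeds its mean and its lower bar leaves the axis. Right, the mean share of each gene in the summed RPKM of the 5 (percent), in which *Drd1* takes 68.2% of the D1-IP bar and *Drd2* 76.9% of the D2-IP bar.

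As a share of all receptor reads per length, *Drd1* made up 68.2% ± 1.77 (SD, n = 13) in D1-IPs and 21.1% ± 3.00 (SD, n = 15) in D2-IPs, and *Drd2* made up 28.5% ± 1.58 and 76.9% ± 2.86. The precipitates of either line therefore held the other line's receptor at a sizeable share. In the inputs the shares of *Drd1* and *Drd2* lay closer together, at 59.4% and 35.2% in D1-inputs and 51.8% and 42.7% in D2-inputs. *Drd3* took 2.77% of the receptor reads per length in D1-IPs and 1.51% in D2-IPs against 4.21% and 4.30% in D1-inputs and D2-inputs, and *Drd5* took 0.496% and 0.399% against 1.16% and 1.20%.

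*Drd1*, the main stimulatory receptor of the striatum, had its lowest, median and highest level at 295, 330 and 411 CPM in the 13 D1-IPs, at 111, 132 and 174.5 CPM in the 15 D2-IPs, at 138, 185.5 and 246 CPM in the 9 D1-inputs and at 144, 164 and 197 CPM in the 9 D2-inputs. Every D1-IP thus lay above every other library. Ordered by mean, the 12 groups ran from D1 Con (355 ± 41.7 CPM, n = 4), D1 Res (336 ± 22.8, n = 4) and D1 Sus (320 ± 19.7, n = 5) through the 6 input groups (196 to 161 CPM) to D2 Con (142 ± 20.7, n = 5), D2 Res (134 ± 24.7, n = 5) and D2 Sus (132 ± 23.0, n = 5). Neighbours in this order overlapped in their ranges except at 1 gap, between D1 Sus and the Con D1-inputs.

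*Drd2*, the main inhibitory receptor, had its lowest, median and highest level at 302, 346.5 and 388 CPM in D2-IPs, at 81.3, 95.7 and 127 CPM in D1-IPs, at 79.2, 96.9 and 118 CPM in D2-inputs and at 58.8, 76.6 and 101 CPM in D1-inputs. Again the IPs of its own line lay above all other libraries, and the D1-IPs overlapped both sets of inputs. The group means ran from D2 Con (352 ± 23.5 CPM, n = 5), D2 Res (346 ± 35.3) and D2 Sus (342 ± 26.8) to D1 Con (104 ± 16.3, n = 4), with the only gap between those last 2, and then down to the Res D1-inputs (72.9 ± 12.6, n = 3) with overlaps at each step.

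*Drd3*, a D2-like receptor, lay between 4.03 and 8.74 CPM (median 6.23) in D1-IPs and between 2.28 and 7.48 CPM (median 4.55) in D2-IPs, with 6.11 ± 0.791 CPM (SD, n = 9) in D1-inputs and 6.51 ± 0.983 in D2-inputs. The 3 D2-IP groups had the 3 lowest of the 12 group means (5.13, 4.50 and 4.07 CPM), and every neighbour in the order overlapped. *Drd5*, the second D1-like receptor, lay between 1.06 and 3.06 CPM in D1-IPs, between 1.23 and 3.50 CPM in D2-IPs and between 1.59 and 4.25 CPM in the 18 inputs. All 6 input groups had higher means (2.79 to 3.66 CPM) than all 6 IP groups (1.89 to 2.37 CPM), although the ranges overlapped.

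*Drd4*, the remaining D2-like receptor, was close to the limit of detection. It was counted 43 times in the 13 D1-IPs together (0 to 11 reads a library), 72 times in the 15 D2-IPs (1 to 12), 7 times in the 9 D1-inputs and 14 times in the 9 D2-inputs. Pooled over libraries this came to 0.123 reads per 1000000 counts (exact Poisson 95% interval 0.0893 to 0.166), 0.184 (0.144 to 0.231), 0.0365 (0.0147 to 0.0753) and 0.0738 (0.0403 to 0.124). The intervals cover counting error only, and reads without molecular identifiers are not independent molecules. *Drd4* failed the filter on low counts in every model and has no test, so 4 of the 5 members were tested.

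**Figure D2:**
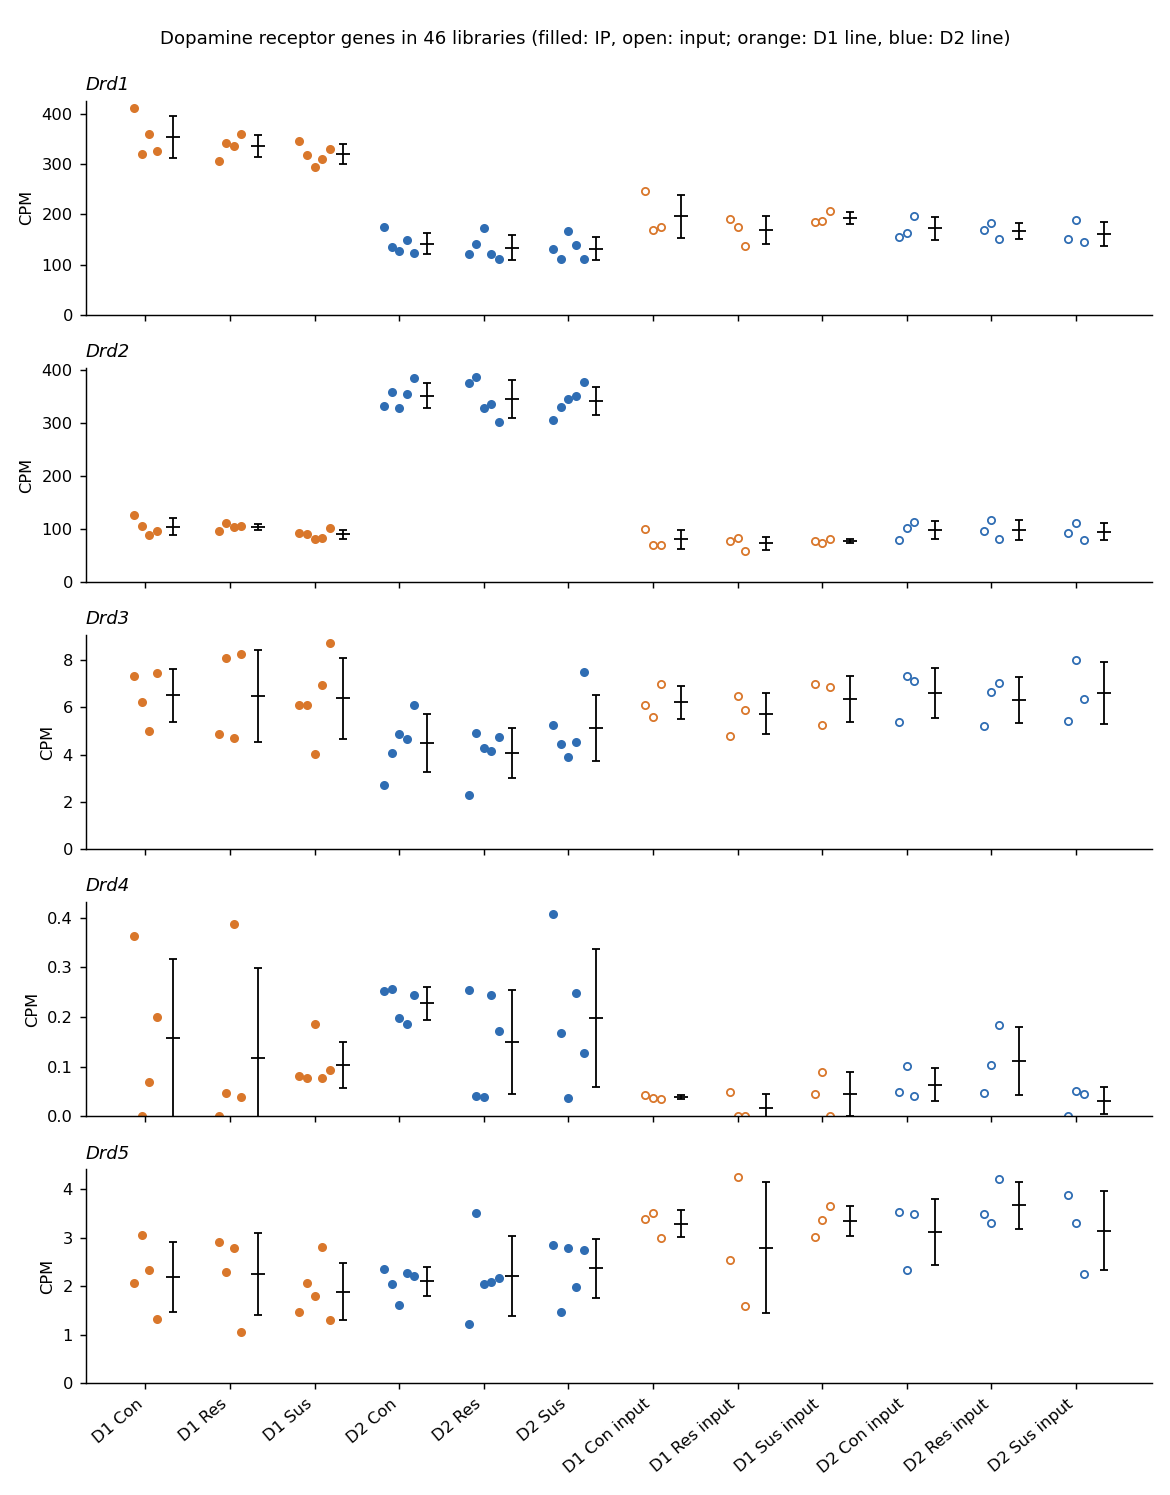
Level of each dopamine receptor in every library of the 12 groups (CPM, 1 panel per gene, each with its own axis), with the mean and 1 SD of each group beside its points, cut at 0 for *Drd4*. *Drd1* is high in the 13 D1-IPs and *Drd2* in the 15 D2-IPs without overlap with any other library, whereas *Drd3*, *Drd4* and *Drd5* overlap between all classes of libraries.

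D1-IPs were compared with D2-IPs by edgeR's quasi-likelihood test over 14224 genes, where a gene was called at a fold change over 1.5 and a Benjamini-Hochberg adjusted p under 0.05. Averaged over the stress groups, 2 of the 4 tested receptors were called, beside 7.62% of all genes tested. Of the others, *Drd3* was higher in D1-IPs by 0.49 on the log2 scale (standard error 0.14, edgeR adjusted p = 0.00528), which is under the fold threshold, with a 95% interval of 0.21 to 0.77. *Drd5* differed by -0.09, with an interval of -0.42 to 0.24, so that no difference was found and differences within this interval are not excluded.

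Within each stress group the same comparison called *Drd1* and *Drd2* again, beside 4.85% of genes in Con, 5.41% in Res and 5.48% in Sus. The log2 difference of *Drd1* was 1.31 in Con, 1.32 in Res and 1.27 in Sus, with a standard error of 0.12, 0.12 and 0.11. That of *Drd2* was -1.77, -1.75 and -1.94, with standard errors of 0.09, 0.09 and 0.08. *Drd3* differed by 0.52 in Con (edgeR adjusted p = 0.165), 0.66 in Res (adjusted p = 0.0619) and 0.30 in Sus (adjusted p = 0.417) and was called in none. In such bulk samples fewer cells of a type and less RNA per cell cannot be told apart.

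To see what precipitation did to each receptor, IPs were set against inputs of the same line in 1 model of all 46 libraries and 15404 genes. In the D1 line 2 of the 4 tested receptors were called, *Drd1* up and *Drd5* down, beside 43.0% of all genes. *Drd1* was higher in D1-IPs by 0.83 on the log2 scale (standard error 0.08, edgeR adjusted p = 1.74e-11), and *Drd5* was lower by a log2 change of -0.60 (standard error 0.17, edgeR adjusted p = 0.00172). *Drd2* was 0.33 higher (adjusted p = 0.000183), under the fold threshold, and *Drd3* differed by 0.04 with an interval of -0.24 to 0.33. The other D2-MSN markers given above were higher in D1-IPs too, and their part in the *Drd2* value was not tested.

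In the D2 line 2 of the 4 tested receptors were again called, *Drd2* up and *Drd5* down, beside 43.6% of all genes. *Drd2* was higher in D2-IPs by 1.80 (standard error 0.08, edgeR adjusted p = 1.37e-22) and *Drd5* changed by -0.61 (standard error 0.17, edgeR adjusted p = 0.00118). *Drd1* was lower in D2-IPs than in D2-inputs by a log2 difference of -0.34 (adjusted p = 0.000208) and *Drd3* by -0.56 (adjusted p = 0.000317), both under the fold threshold. Values of IPs against inputs are relative to the TMM scaling in both lines. Of all genes, 1969 were called up and 4749 down in the D2 line, and 2118 up and 4511 down in the D1 line. With the Con libraries alone 1 of 4 receptors was called in the D1 line (*Drd1*, 0.82, beside 41.0% of genes) and 2 of 4 in the D2 line (*Drd2*, 1.81, and *Drd3*, -0.60, beside 41.7%), and *Drd5* stood at -0.62 in both lines with edgeR adjusted p = 0.0651 and 0.0607. The Con call of *Drd3* was lost without any 1 of 4 of the 8 libraries (IP Con 1 and 2, input Con 2 and 3; -0.72 to -0.47 over the 8 omissions, edgeR adjusted p of 0.0900 at most), with all genes of at least 1 count (-0.56) and with only the libraries compared (-0.58).

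*Drd5* lay close to the 1.5-fold threshold. Its call was lost in the D1 line without 1 of 9 libraries (D1 Con IP 1 and 4, D1 Res IP 4, D1 Sus IP 1, 3 and 5, and the D1-inputs Con 2, Res 2 and Sus 3) and its log2 change ranged from -0.69 to -0.45 over the 22 omissions, with an edgeR adjusted p of 0.0197 at most. In the D2 line it was lost without any 1 of 14 of the 24 libraries, with a range of -0.66 to -0.50 and an adjusted p of 0.00903 at most. The D1 line's value was lowest in size, at -0.45, without Res D1-input 2. With all genes of at least 1 count kept, the call was lost in both lines, at -0.57 in each.

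**Figure D3:**
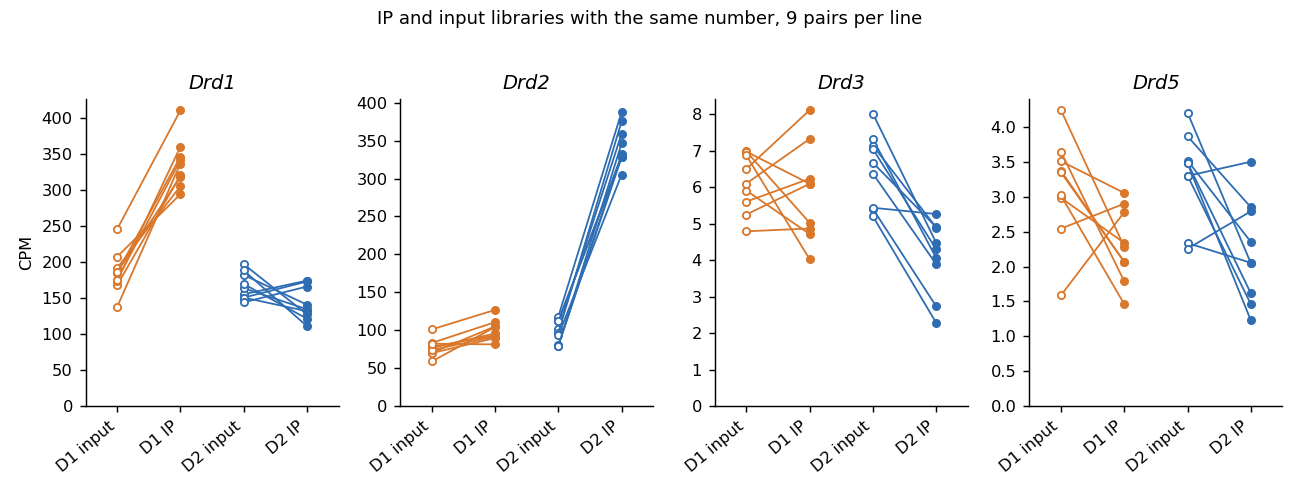
Level (CPM, 1 panel per gene) of *Drd1*, *Drd2*, *Drd3* and *Drd5* in the input (open) and the IP (filled) of 9 pools per line, joined by a line within each pool. The lines of *Drd1* go up in all 9 D1 pools and those of *Drd2* in all 9 D2 pools, and those of *Drd3* go down in all 9 D2 pools.

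IP and input of 1 pool of mice could be set side by side in 9 pools of each line. *Drd1* was higher in the IP in 9 of 9 D1 pools, by 0.50 to 1.29 on the log2 scale, and in 3 of 9 D2 pools (Con 1, Res 3 and Sus 3), with a range of -0.76 to 0.20. *Drd2* was higher in the IP in 9 of 9 D2 pools, by 1.54 to 2.12, and in 8 of 9 D1 pools, with a range of -0.02 to 0.82. *Drd3* was lower in the IP in 9 of 9 D2 pools (-1.16 to -0.05) and in 4 of 9 D1 pools (-0.76 to 0.32), and *Drd5* was lower in 7 of 9 pools of each line. In a fit with the pool as a block, which the shared homogenate allows, *Drd3* passed the fold threshold in the D2 line (-0.71, edgeR adjusted p = 2.08e-05), and *Drd5* no longer passed it in the D1 line (-0.46, edgeR adjusted p = 0.0258).

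The difference between the lines in this IP to input change was itself tested, and it was called for 3 of the 4 tested receptors beside 7.58% of genes. It was 1.16 for *Drd1* (standard error 0.11, edgeR adjusted p = 7.88e-10), -1.47 for *Drd2* (standard error 0.11, edgeR adjusted p = 2.30e-13) and 0.60 for *Drd3* (standard error 0.20, edgeR adjusted p = 0.0209). *Drd3* went with *Drd1* in the direction of this difference, although it belongs with *Drd2* in its signalling family. Its value lay near the threshold, between 0.52 and 0.64 without any 1 library, and the call was lost in 26 of 46 such omissions, with an adjusted p of 0.0543 at most. It was also lost with DESeq2 (0.58, DESeq2 adjusted p = 0.0158) and with RLE size factors (0.58, edgeR adjusted p = 0.0250), in both under the fold threshold. *Drd5* showed no such difference at this depth (0.00, interval -0.52 to 0.52).

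The inputs of the 2 lines were compared because both hold the whole tissue. None of the 4 tested receptors was called between D1-inputs and D2-inputs by edgeR, beside 0.0199% of 15063 genes, and DESeq2 called none of them either. Of the 4, only *Drd2* passed an unadjusted p under 0.05 in edgeR. It was lower in D1-inputs by a log2 difference of -0.34 (standard error 0.10, edgeR adjusted p = 0.784), and a two-sided exact permutation test of its log2 CPM gave p = 0.00695, not adjusted over genes. *Drd1* differed by 0.15 (interval -0.04 to 0.33). The other D2-MSN markers had positive values in this comparison, unlike *Drd2* (*Adora2a* 0.15, *Penk* 0.15, *Gpr6* 0.14, *Gpr52* 0.13 and *Sp9* 0.02). D1-MSN markers were positive too (*Pdyn* 0.16, *Tac1* 0.07 and *Chrm4* 0.05), and none of these markers was called. What sets *Drd2* apart here was not tested.

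The ratio of *Drd1* to *Drd2* counts within a library does not depend on how libraries are scaled. Its lowest, median and highest value was 3.06, 3.40 and 4.02 in D1-IPs, 0.294, 0.374 and 0.528 in D2-IPs, 2.11, 2.43 and 2.53 in D1-inputs and 1.54, 1.75 and 1.96 in D2-inputs. The 4 classes did not overlap, and the D1-inputs lay above the D2-inputs in 9 of 9 libraries. Tested on log2 ratios over 11 comparisons, with p-values adjusted over them, D1-inputs were 1.39-fold above D2-inputs (two-sided exact permutation test, p = 4.11e-05, the smallest this design allows, adjusted p = 0.000113). D1-IPs were 1.42-fold above D1-inputs (exact permutation p = 4.02e-06, adjusted p = 2.21e-05), and D2-IPs were 4.46-fold below D2-inputs (exact permutation p = 1.53e-06, adjusted p = 1.68e-05). These tests of IPs against inputs permuted all libraries as independent, although each input shares its pool with an IP, so their p-values ignore the pairing. D1-IPs stood 8.78-fold above D2-IPs (permutation test with 100000 resamples, p = 2e-05, the smallest they can give). The ratio therefore moved further from its input value in the D2 line than in the D1 line, and the lines already differed in it before precipitation. Between the inputs the other D2-MSN markers did not go with *Drd2*, as given above.

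**Figure D4:**
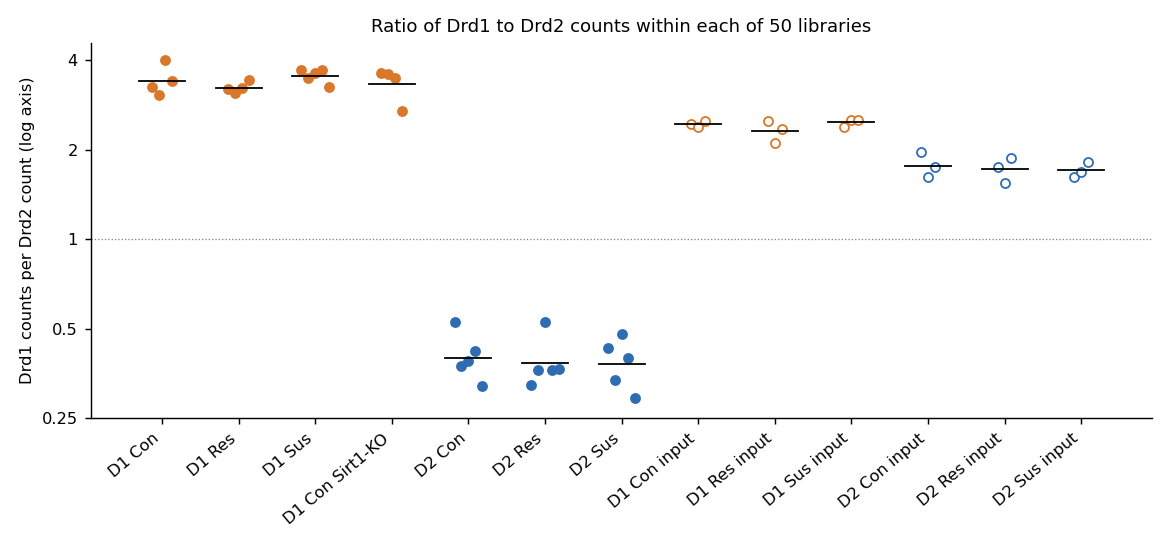
*Drd1* counts per *Drd2* count (log axis) in each of 50 libraries, by group, with a bar at the group mean of the log2 ratio. The classes do not overlap, from 3.06 to 4.02 in D1-IPs, 2.11 to 2.53 in D1-inputs, 1.54 to 1.96 in D2-inputs and 0.294 to 0.528 in D2-IPs, and 1 of the 4 libraries labelled Sirt1-KO lies below the D1-IPs.

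Stress groups were compared within each line's IPs, with genes counted at an unadjusted p under 0.05 and the adjusted p given beside it. In D1-IPs 1 of the 4 tested receptors passed in Sus against Con, beside 5.24% of genes, none in Res against Con, beside 2.05%, and 1 in Sus against Res, beside 4.08%. Both were *Drd2*. It stood at 127, 105, 89.7 and 95.6 CPM in D1 Con, at 95.7, 111, 104 and 105 CPM in D1 Res, and at 93.2, 91.6, 81.3, 83.7 and 102 CPM in D1 Sus. The Sus libraries lay low but overlapped both other groups, and the highest value was that of D1 Con 1.

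*Drd2* in D1-IPs had a log2 difference of -0.20 between Sus and Con (standard error 0.09, edgeR adjusted p = 0.860) and of -0.20 between Sus and Res (standard error 0.09, edgeR adjusted p = 0.9995), so neither passed the adjustment. The unadjusted p comes from a model that borrows spread from the other groups and genes. In a two-sided exact permutation test of log2 CPM, which can go no lower than 0.0159 with 5 against 4 libraries, Sus against Con gave p = 0.127 and Sus against Res p = 0.0317. The call against Con was thus lost with the exact test. That against Res reached an exact permutation p of 0.0571 without any 1 of D1 Sus 1 to 4 and of 0.0714 without any 1 of D1 Res 2 to 4 (log2 differences of -0.25 to -0.17 over all omissions). In edgeR the call against Con was lost without D1 Con 1 (log2 difference -0.09), D1 Sus 3 (-0.16) or D1 Sus 4 (-0.17), and the call against Res without D1 Res 2 (-0.17), D1 Sus 3 (-0.17) or D1 Sus 4 (-0.18). In the same contrast with Con, 4 of the 5 other D2-MSN markers also passed an unadjusted p under 0.05 in the same direction (*Adora2a* -0.25, *Gpr52* -0.25, *Gpr6* -0.26, *Penk* -0.21), with *Sp9* at -0.12. The D1-MSN markers *Tac1* (-0.23), *Pdyn* (-0.10) and *Chrm4* (-0.05) were negative there too, as was *Drd1* (-0.14), and none of these passed. The part of these markers in the result was not tested. Against Res, 1 of the 5 D2-MSN markers passed (*Gpr6*, -0.25), with *Gpr52* at -0.18, *Adora2a* at -0.18, *Sp9* at -0.16 and *Penk* at -0.13. The D1-MSN markers lay there at -0.05 (*Tac1*), -0.10 (*Pdyn*) and 0.005 (*Chrm4*). Markers of cholinergic interneurons, which make *Drd2* too, had negative values against Res in 6 of 6, from -0.96 (*Slc18a3*) to -0.41 (*Chat*), of which *Slc10a4* (-0.79) passed an unadjusted p under 0.05. Their summed level ran from 9.02 to 20.03 CPM in Sus, 12.8 to 36.2 in Res and 13.3 to 14.9 in Con, and against Con 0 of 6 passed by edgeR, adjusted or not. Their part was not tested either.

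In D2-IPs none of the 4 tested receptors passed an unadjusted p under 0.05 in Sus against Con, Res against Con or Sus against Res, beside 3.60%, 2.94% and 1.62% of genes. *Drd2* stood there at 332, 359, 328, 355 and 386 CPM in Con, at 375.5, 388, 328, 336 and 302 CPM in Res and at 305, 330.3, 346.5, 352 and 378 CPM in Sus, with the 3 groups overlapping throughout. Its log2 difference was -0.03 between Sus and Con (interval -0.20 to 0.13). *Drd1* in D1-IPs differed by -0.14 between Sus and Con (interval -0.38 to 0.10) and by -0.07 between Res and Con (interval -0.33 to 0.19). *Drd3* and *Drd5* had wider intervals, of -0.51 to 0.46 and -0.80 to 0.38 in D1-IPs between Sus and Con. In D2-IPs the interval of *Drd5* was -0.37 to 0.74.

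The difference between the lines in the stress response was tested directly, and none of the 4 tested receptors passed an unadjusted p under 0.05 in Sus against Con, Res against Con or Sus against Res, beside 1.74%, 2.31% and 1.95% of genes. For *Drd2* it was -0.17 in Sus against Con (exact permutation p = 0.306) and -0.19 in Sus against Res (exact permutation p = 0.136). In the inputs, with line as a covariate, none of the 4 passed in Sus against Con, Res against Con or Sus against Res, beside 4.38%, 3.18% and 5.28% of genes, and *Drd1* differed by -0.05 between Sus and Con (interval -0.28 to 0.17) and *Drd2* by -0.04 (interval -0.31 to 0.23).

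The ratio of *Drd1* to *Drd2* within D1-IPs had medians of 3.32 in Con, 3.22 in Res and 3.62 in Sus. Between Sus and Res it differed by 0.13 on the log2 scale (1.10-fold, two-sided exact permutation p = 0.0317, adjusted p = 0.0697), which did not pass the adjustment, and the other comparisons of stress groups had exact permutation p-values from 0.524 to 0.968.

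**Figure D5:**
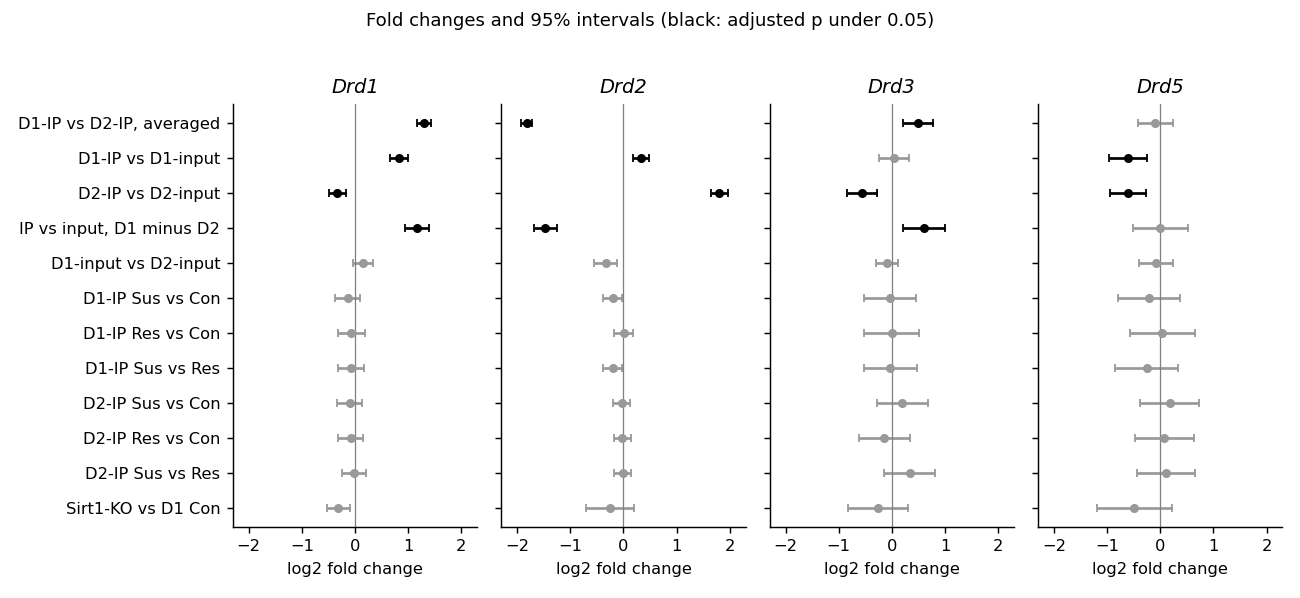
Log2 differences of the 4 tested receptors in each comparison, with 95% intervals from edgeR (x axis, 1 panel per gene), in black where the adjusted p was under 0.05. Black points stand only in the comparisons of lines and of IPs with inputs, and no stress or Sirt1-KO comparison has one.

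In D1-IPs of undefeated mice, libraries labelled Sirt1-KO were compared with D1 Con to ask what loss of the deacetylase Sirt1 does in these cells. *Sirt1* itself stood at 13.1, 16.6, 14.8 and 14.3 CPM in D1 Con and at 15.1, 16.2, 13.2 and 10.2 CPM in the libraries labelled Sirt1-KO 1, 3, 4 and 5, so that the groups overlapped. Counts over the whole gene cannot show the loss of a part of it, and the label is used here as given. None of the 4 tested receptors was called by edgeR, beside 0.705% of 13626 genes, although *Drd1* passed an unadjusted p under 0.05, and DESeq2 called none.

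*Drd1* stood at 385, 300.1, 339 and 304 CPM in D1 Con and at 274, 246, 234 and 310 CPM in the libraries labelled Sirt1-KO, where 3 of the 4 lay below all controls and Sirt1-KO 5 did not. (CPM of the same D1 Con libraries differ slightly from those above because TMM factors were computed within each table.) The log2 difference was -0.31 (standard error 0.10), with an adjusted p = 0.153 in edgeR and an adjusted p = 0.0505 in DESeq2. The two-sided exact permutation test of log2 CPM gave p = 0.0857, where 4 against 4 libraries can go no lower than 0.0286. *Drd2* stood at 119, 98.2, 84.3 and 89.3 CPM against 75.5, 68.5, 67.2 and 115 CPM, a difference of -0.26 (edgeR adjusted p = 0.562). *Drd3* differed by -0.26 and *Drd5* by -0.49, with intervals of -0.83 to 0.31 and -1.19 to 0.21.

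The library Sirt1-KO 5 was the highest of its group for each of these 4 receptors. It also had the lowest *Sirt1* level of all libraries compared, and the other libraries labelled Sirt1-KO lay within the range of D1 Con for *Sirt1*. Without Sirt1-KO 5, *Drd1* differed by -0.40 (edgeR adjusted p = 0.0219) and *Drd2* by -0.47 (adjusted p = 0.0306), both still under the fold threshold, *Drd3* by -0.57 (adjusted p = 0.0863) and *Drd5* by -0.72 (adjusted p = 0.218). This omission is singled out after the values were seen. Over all 8 omissions *Drd1* ranged from -0.40 to -0.24 (edgeR adjusted p of 0.357 at most) and *Drd2* from -0.47 to -0.15 (0.790 at most). Other genes moved with the label too. Summed D1-MSN markers other than *Drd1* ran from 665 to 803 CPM against 893 to 1092 in D1 Con with no overlap, and D2-MSN markers from 1607 to 2499 against 2210 to 3249. Markers of cortical excitatory neurons ran from 849 to 1616 CPM against 382 to 1044, and those of cholinergic interneurons from 4.75 to 10.4 against 12.4 to 14.0. Their part in the receptor values was not tested. The ratio of *Drd1* to *Drd2* differed by -0.04 on the log2 scale (exact permutation p = 0.829).

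A list of 67 other genes of dopamine supply and receptor signalling was read beside the receptors. Between D1-IPs and D2-IPs 4 of 66 tested were called (6.06% beside 7.62% of all genes), 2 in each direction, and all 4 belong to dopamine supply. *Aldh1a1*, an aldehyde dehydrogenase that breaks down the dopamine aldehyde, was higher in D1-IPs by 2.05 on the log2 scale (6.08 ± 1.15 CPM against 1.45 ± 0.361, edgeR adjusted p = 2.15e-14). *Slc6a3*, the dopamine transporter, was 0.66 higher (standard error 0.24, edgeR adjusted p = 0.0302) at 0.574 ± 0.222 CPM against 0.359 ± 0.141. *Th*, the rate-limiting enzyme of dopamine synthesis, was lower in D1-IPs by a log2 difference of -0.76 (8.60 ± 1.62 against 14.4 ± 2.76 CPM, edgeR adjusted p = 3.59e-07), and *Slc18a2*, the vesicular monoamine transporter, by -0.94, at 0.787 ± 0.324 CPM in D1-IPs. None of the G proteins, cyclases, phosphodiesterases, kinases or regulators on the list was called between the lines. An adjusted p under 0.05, whatever the fold, was found for 40 of the 66 genes, beside 5780 of 14224 genes in all.

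Between IPs and inputs 18 of 67 were called up and 7 down in the D1 line (37.3% beside 43.0% of all genes), and 25 up and 8 down in the D2 line (49.3% beside 43.6%), with a median log2 change of 0.29 in both against -0.04 and -0.08 over all genes. Of all 15404 genes, 2118 were called up in the D1 line and 1969 in the D2 line. Of the PKA targets and phosphatases, 3 of 8 rose in the D1 line and 6 of 8 in the D2 line. *Ppp1r1b*, which encodes DARPP-32, the MSN phosphoprotein that PKA phosphorylates downstream of the D1 receptor, rose by 1.22 in D1-IPs (1664 ± 216 CPM against 702 ± 108.5) and by 1.67 in D2-IPs (2086 ± 181 against 638 ± 68.4). Of the cyclase, phosphodiesterase and PKA genes 6 of 12 rose in the D1 line, *Pde1b* by 0.88 among them, and 7 of 12 in the D2 line. Among G proteins *Gnal*, the Golf subunit that D1 receptors use in the striatum, rose by 0.84 and 1.13 in the D1 and D2 line, and *Gnai2* fell, at -0.80 and -0.84. *Rgs2* (0.99 and 1.23), a regulator of G-protein signalling, and *Caly* (0.85 and 0.91), which encodes the D1-receptor-interacting protein calcyon, rose in both lines. *Flna*, the filamin to which D2-like receptors bind, fell in both (-2.47 and -1.82), as did *Grk4*, a receptor kinase (-1.29 and -0.85). In dopamine supply *Th* and *Ddc*, the enzyme after it, rose in the D2 line (0.95 and 0.93), and *Aldh1a1* fell in both (-1.45 and -3.58).

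In D1-IPs between Sus and Con 9 of these 66 genes (13.6% beside 5.24% of all genes) passed an unadjusted p under 0.05, 1 up (*Flna*, 0.37) and 8 down (*Gnb5*, *Gng7*, *Pde1b*, *Arpp21*, *Ppp1r1b*, *Rgs8*, *Akt1* and *Akt2*), none at an adjusted p under 0.05. These 9 are named after their values were seen. In D1-IPs 0 of 66 passed in Res against Con (beside 2.05% of all genes) and 6 of 66 in Sus against Res (beside 4.08%). In D2-IPs 2 of 66 passed in Sus against Con (beside 3.60%) and 0 of 66 in Res against Con and in Sus against Res. For the difference between the lines it was 0 of 66 in Sus against Con and in Res against Con. It was 1 of 66 in Sus against Res (beside 1.95%). Between libraries labelled Sirt1-KO and D1 Con none of the 66 was called by edgeR, beside 0.705% of all genes, or by DESeq2. At an unadjusted p under 0.05, 26 passed in edgeR, beside 2267 of 13626 genes in all, and 28 in DESeq2.

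Of 15404 genes, those whose group means of log2 CPM followed *Drd1* most closely over the 12 groups were *Slc35d3* (Pearson's r = 0.995), *Pdyn* (0.995), *Kit* (0.986), *Dlk1* (0.979) and *Sec14l3* (0.969), and those nearest to *Drd2* were *Ptprm* (0.987), *Adk* (0.985), *Alk* (0.977), *Mprip* (0.976) and *Sp9* (0.973). *Pdyn* is a marker of D1-MSNs and *Sp9* of D2-MSNs. Nearest to *Drd3* were *Pcdh20* (0.968), *Gjd2* (0.956), *Cd36* (0.952), *Adamts2* (0.950) and *Tbata* (0.946), and nearest to *Drd5* were *Rpl14-ps1* (0.973), *I830077J02Rik* (0.969), *Elmo3* (0.968), *Mir154* (0.966) and *9630001P10Rik* (0.965). Between members r was -0.53 for *Drd1* and *Drd2*, -0.89 for *Drd2* and *Drd3* and 0.58 for *Drd1* and *Drd3*. The points are means of 6 IP and 6 input groups, so that a correlation over them reflects mostly the line and the precipitation, and it is given as a description of these 12 groups.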

How the data were processed

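What the authors deposited are raw counts by gene symbol, made from poly-A selected, paired reads by trimming with cutadapt, aligning to mm10 with STAR and counting with HTSeq. The counts are not normalized. Versions, the gene annotation and the strand setting are not given in the sources used here. Entries that name no gene held 18.0% to 28.3% of reads in IPs and 35.9% to 40.0% in inputs and were left out, as were 2 columns with no sample description. No pair of the 76 replicate pairs was a duplicate (chi-square per gene 3.61 to 104.8). The labels tie each library to 2 pooled mice, so p-values measure the spread between pools.

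TMM factors, CPM and quasi-likelihood tests with robust estimates were computed in edgeR 4.0.16 (R 4.3.3), in models of the 28 IPs, all 46 libraries, the 18 inputs and the 8 D1-IPs of the Sirt1-KO table. Genes were kept by filterByExpr (minimum count 10, minimum total 15), which left 14224, 15404, 15063 and 13626 genes, with Benjamini-Hochberg adjustment over all of them. Fold and p thresholds follow the study's methods, which adjust the D1 to D2 comparison and count stress contrasts at an unadjusted p. Standard errors come from the F statistic. For single receptors, log2 CPM was also compared between groups by exact permutation over libraries (two-sided), an addition made after the data were seen. The log2 ratio of *Drd1* to *Drd2* counts (0.5 added to each) was compared by two-sided permutation tests. RPKM used the union of annotated exons in GENCODE vM21. The tests were checked on simulated counts.

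Titles give an IP and an input the same number, and the labels say that the input was saved from the homogenate that was precipitated, so the 2 were taken as 1 pool; the correlation of their deviations from group means was -0.19 to 0.51 (median 0.03) and over 0.1 in 3 of 18 pools. A number shared between groups was not taken as a pair. The share of reads naming no gene went partly with it in the IPs, which was not tested. Library 3 held the lowest share in the D1 and D2 IP groups (18.0% to 19.8%), but not among those labelled Sirt1-KO. Library 5 held the highest in D1 Sus (24.5%), D2 Res (27.2%), D2 Sus (28.3%) and Sirt1-KO (23.8%), but not in D2 Con. No library 5 is among those used for D1 Con.

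Of the pathway lists, up to 4 called genes per list with the largest change between the lines and up to 3 per direction between IP and input could be named, and some of these are described; the genes closest to a receptor were the 5 with the highest r. The members, the lists and the tests were chosen with earlier results of these data known. The settings varied were RLE scaling, no filter beyond 1 count, DESeq2 1.42.0, the replicate or pool as a block, only the libraries compared, each library left out, other pseudocounts (0 and 5) for the ratio, and the longest transcript or unscaled counts for RPKM. Figures were drawn with matplotlib 3.10.9.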

Additional observations from a re-analysis of the deposited data

Results flagged for a closer look

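For 3 receptors, the values tested as differences between the lines passed, each being the change from input to IP in the D1 line minus that in the D2 line. It was 1.16 for *Drd1* (edgeR adjusted p = 7.88e-10), -1.47 for *Drd2* (adjusted p = 2.30e-13) and 0.60 for *Drd3* (adjusted p = 0.0209), and *Drd1* and *Drd2* kept their call without any 1 of the 46 libraries. *Drd3* lost it in 26 of 46 such omissions, with DESeq2 (0.58) and with RLE size factors (0.58).

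Of 44 group tests for a single library far from the rest of its group, 5 found one, where chance gives about 1 in 20. *Drd3* in D2 Res 1 stood at 2.28 CPM, below the 4.15 to 4.90 CPM of the other 4 libraries. *Drd4* stood at 0.387 CPM in D1 Res 3 against 0 to 0.0466 in the other 3, and at 0.186 CPM in D1 Sus 3 against 0.0766 to 0.0940 in the other 4, values that rest on few reads. The log2 ratio of *Drd1* to *Drd2* was 1.43 in the library labelled Sirt1-KO 5 against 1.80 to 1.86 in the other 3 of its group, and -0.92 in D2 Res 3 against -1.63 to -1.45 in the other 4.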

How the results depend on the processing

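Over 92 comparisons of single receptors, 1724 of 1804 alternatives stayed on the same side of the threshold, 68 lost a call, 12 gained one and 0 reversed a called value. In 140 of the 1724 an uncalled value changed sign, each time inside its 95% interval, and 0 of 40 alternatives moved a level per length by more than its SD. *Drd3* between D1-IPs and D2-IPs gained a call with the replicate number as a block in Con (0.65, edgeR adjusted p = 0.0165) and Res (0.76, adjusted p = 0.00431) and with DESeq2 in Res (0.66, adjusted p = 0.0349). The exact permutation test, added after the data were seen, ended the call of *Drd2* between Sus and Con in D1-IPs (p = 0.127) and changed no other of the 44 receptor results it was run on. The calls of *Drd3* and *Drd5* between IP and input that were lost under other settings are given beside those results. Depth limits *Drd4*, at most 12 reads a library, and the intervals of *Drd5*.

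With all genes of at least 1 count, genes passing were 461 for Res against Con in D1-IPs, 432 for Sus against Res in D2-IPs, and 440, 507 and 500 for Sus against Con, Res against Con and Sus against Res between the lines, against 292, 230, 247, 328 and 277 otherwise, and 1 receptor was called between D2-IPs and inputs in Con. With a replicate block they were 675 for Res against Con in D2-IPs (otherwise 418), 551 for Res against Con between the lines and 568 for Sirt1-KO (otherwise 96), and 1 receptor was called between D1-IPs and inputs. With DESeq2 they were 9 between the inputs (otherwise 3) and 223 for Sirt1-KO, and 2 receptors were called in the D1 line's Con libraries. In fits of only the libraries compared, 0 receptors passed for Sus against Con in D1-IPs (edgeR, at an unadjusted p under 0.05) and 2 were called between Con D1-IPs and inputs.

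Leaving out each library in turn gave 470 to 898 genes for Sus against Con in D1-IPs (745 with all), 195 to 473 for Res against Con, 199 to 521 for Sus against Res in D2-IPs, 203 to 408 and 266 to 499 for Sus and Res against Con between the lines, 519 to 1235 and 634 to 1480 for Sus against Con and against Res in the inputs (660 and 795 with all), and 37 to 249 for Sirt1-KO. Receptors called ranged from 0 to 1 for Sus against Con and against Res in D1-IPs, from 1 to 2 between D1-IPs and inputs, also in Con alone, from 1 to 3 between D2-IPs and inputs and from 1 to 2 in Con alone. The range was 2 to 3 for the line difference in the IP to input change. It was 2 to 3 also between D1-IPs and D2-IPs in Res, where *Drd3* gained a call without D1 Res 3 (0.79, edgeR adjusted p = 0.0405). The ratio of *Drd1* to *Drd2* between Sus and Res in D1-IPs ranged from 0.11 to 0.17. The cause of these changes was not tested.

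Libraries of different groups that share a replicate number were not taken as pairs. Their deviations correlated over 0.1 in 17 of 66 pairs of IPs and 12 of 45 pairs of inputs. For Sirt1-KO and Con it was 0 of 3 pairs. In the IPs the share of reads naming no gene went partly with the number, so the block's effect there is given as a value only. With the pool as a block, the receptors *Drd3* and *Drd5* changed calls between IP and input as given above, and no other receptor did in all libraries.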
